A study of Caenorhabditis elegans with 2 samples.

Results

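The regions described here are candidate binding regions of the nuclear hormone receptor NHR-12 that lay on the arms of the 5 Caenorhabditis elegans autosomes and away from promoters. They were chosen by position and by recurrence. A region of the replicate 1 list was a member when its summit lay inside a region of the replicate 2 list, in the first or last 30% of its autosome, and more than 500 bp from the start of every protein-coding transcript. There were 1047 such arm regions among 2440 shared autosomal regions and among 13876 regions of the replicate 1 list in all. The rule screened protein-coding starts only, and 862 of the 1047 were more than 500 bp from transcript starts of every biotype. The same rule applied to the middle 40% of each autosome gave 709 centre regions (571 with every biotype screened), which served as the comparison. They come from ChIP-seq of whole worms of strain OP318, genotype unc-119(ed3) III with the transgene wgIs318, in which NHR-12 is fused to eGFP. Worms were L3 larvae, males and females pooled, and all samples carried the same alleles, with no treatment given in the labels. The only group held 2 biological replicates. The label of the antibody names only nhr-12 as its target, the libraries had a size range of 150 to 350 bp, and no control list or untagged strain was analysed here. Whole larvae mix all tissues, so a region found in few cells and one found weakly in many cannot be told apart.

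Nuclear hormone receptors are transcription factors with a zinc finger DNA-binding domain and, in most, a ligand-binding domain, and the worm genome holds an unusually large family of them. Many receptors of the wider family bind the half-site AGGTCA or the extended form AAGGTCA. The arms of worm autosomes recombine more, hold more repeats and carry many of the expanded gene families, whereas the centres hold more of the genes conserved among animals.

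The following sequences are examples from the arm regions, and not every leading region is shown. Each runs from 50 bp before to 50 bp after the summit in replicate 1, on the plus strand of WBcel235 (ce11), read from the RefSeq copy of that assembly. The first overlaps an optimal peak, that is, a peak past the authors' reproducibility filter. The arm regions in optimal peaks upstream of egg-5 and pas-5 are not shown. Their summits lay outside repeat-masked sequence and outside sequence that occurs more than once in the genome. The next 5 come from the strongest regions of either replicate outside optimal peaks, and there capitals mark every 8-base word that occurs at least 2 times in the window, as in the first. Windows in an arrd-6 intron, a dhc-4 coding exon and an intergenic stretch of chromosome III also belong to that group. They held 0 bases in repeated words and are not shown. The last 3 are the strongest regions of replicate 1 that hold AAGGTCA within 50 bp of the summit, and there capitals mark that word or its reverse complement.
usp-39 intron, chrII:2570668-2570768: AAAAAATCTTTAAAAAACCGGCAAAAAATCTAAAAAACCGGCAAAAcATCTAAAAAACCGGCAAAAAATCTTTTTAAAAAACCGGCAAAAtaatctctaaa
C39E9.8 intron, chrIV:13081757-13081857: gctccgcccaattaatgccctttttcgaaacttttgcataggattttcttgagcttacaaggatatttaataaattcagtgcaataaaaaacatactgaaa
linc-128 exon, chrV:1151427-1151527: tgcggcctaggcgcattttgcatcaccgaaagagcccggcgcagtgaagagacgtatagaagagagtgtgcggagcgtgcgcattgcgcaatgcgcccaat
lelo-2 intron, chrIII:1424370-1424470: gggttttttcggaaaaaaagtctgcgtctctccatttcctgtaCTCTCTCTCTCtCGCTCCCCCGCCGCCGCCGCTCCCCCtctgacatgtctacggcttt
intergenic region near Y37A1B.7, chrIV:14034107-14034207: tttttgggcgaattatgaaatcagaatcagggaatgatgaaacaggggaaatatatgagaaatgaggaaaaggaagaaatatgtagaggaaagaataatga
snRNA gene inside dhc-4, chrIII:10989718-10989818: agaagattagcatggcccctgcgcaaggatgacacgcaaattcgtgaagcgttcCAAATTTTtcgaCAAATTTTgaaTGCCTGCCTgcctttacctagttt
ptp-3 intron, chrII:10977855-10977955: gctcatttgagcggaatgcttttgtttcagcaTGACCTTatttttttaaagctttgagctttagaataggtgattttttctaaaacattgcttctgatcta
pmp-4 coding exon, chrIV:17403726-17403826: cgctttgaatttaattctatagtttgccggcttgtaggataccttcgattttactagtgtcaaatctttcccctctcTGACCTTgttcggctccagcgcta
intergenic region of the left arm of V, chrV:5816067-5816167: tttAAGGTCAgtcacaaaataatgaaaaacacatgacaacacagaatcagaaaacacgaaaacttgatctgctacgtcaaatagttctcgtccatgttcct

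The usp-39 window was almost entirely a tandem repeat, with 89 bases inside repeated words. The 30 bases centred on its summit occurred 3 times in the genome, all on chromosome II. The lelo-2 window held 37 such bases and the snRNA window 25, while the C39E9.8, linc-128 and intergenic windows held 0. The intergenic region labelled by Y37A1B.7 had its summit 9623 bp from the start of that gene, the nearest protein-coding start. Within 2 kb of that summit lay 7 piRNA genes, short genes of germline small RNAs. The arms held 12460 piRNA genes in all, and how many lie near other positions of that arm was not counted. GC content ran from 26.7% in usp-39 to 58.4% in linc-128. None of the first 6 windows held AGGTCA.

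Arm regions were nearly as dense as centre regions. The arms held 27.2 regions per Mb of eligible sequence (95% Poisson interval 25.6 to 28.9), where eligible sequence is all sequence more than 500 bp from a protein-coding start, against 29.3 per Mb (27.2 to 31.5) in the centres. The ratio was 0.928 (0.843 to 1.02), and the difference did not pass the test (two-sided exact binomial test given the eligible length, p = 0.129, Benjamini-Hochberg adjusted p = 0.309 over 12 comparisons). Eligible sequence came to 38.5 Mb on the arms and 24.2 Mb in the centres. The arms therefore held 59.6% of the shared distal regions on 61.4% of the eligible sequence. Regions are not replicate worms, so each p here is about the lists, and says nothing of the spread from worm to worm.

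Among the 10 arms, density ran from 23.5 per Mb on the left arm of I to 32.8 per Mb on the left arm of III. The right arm of III, at 32.7 per Mb, lay close to its left arm. The right arm of IV held 30.2 per Mb (25.2 to 35.9), and the left arm of IV held 25.8 (21.1 to 31.2). Centre densities ran from 26.6 to 34.2 per Mb, and the densest centre was also that of chromosome III. The ratio of arm to centre was below 1 on 4 of the 5 autosomes, lowest on V at 0.836 (0.687 to 1.02) and highest on IV at 1.05 (0.848 to 1.31). The 5 intervals all include 1.

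Both replicates had about as many distal regions per Mb on the arms as in the centres. In replicate 1, all distal regions, shared or not, stood at 130 per eligible Mb on the arms and 138 in the centres. In replicate 2 the values were 230 and 232. The ratio in replicate 1 alone was 0.936 (adjusted p = 0.00537, exact binomial test) and in replicate 2 alone 0.990 (adjusted p = 0.573). With each autosome cut into 10 equal stretches, the density of shared regions was 30.2 per Mb in the first and 27.7 in the last. It was highest, at 33.0 per Mb, just inside the centres next to the left arms, and was 30.7 and 31.5 on the sides of the limit to the right arms.

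**Figure D1:**
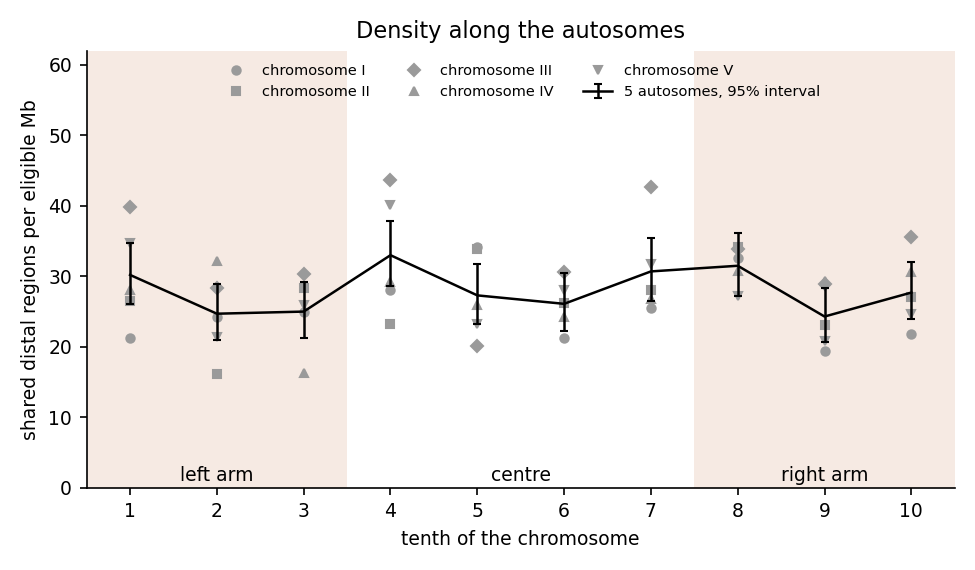
Shared distal regions per eligible Mb (vertical axis) in 10 equal stretches of the chromosome (horizontal axis). Grey symbols are single autosomes, the black line is the 5 autosomes together with 95% Poisson intervals, and shading marks the arms. The black line stays between 24.3 and 33.0 per Mb, and its lowest and highest points are an arm and a centre stretch.

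Eligible sequence includes copies of repeats, and few regions of either class lay in them. At 13.5% of positions taken every 100 bp along eligible arm sequence, the surrounding 30 bases occurred more than once in the nuclear genome. Only 17 of the 1047 arm summits (1.62%, 95% Clopper-Pearson interval 0.949 to 2.59) lay in such multi-copy sequence, as did 2.30% of the distal arm regions found in replicate 1 only. In the centres the share was 6.83% of positions and 0.987% of summits. The odds ratio of arm to centre summits was 1.66 (0.648 to 4.75) and did not pass the test (Fisher's exact test, adjusted p = 0.418). Over all distal regions of one list, shared or not, it passed, at 2.62 in replicate 1 (Fisher's exact test, adjusted p = 3.49e-06) and 3.74 in replicate 2 (adjusted p = 7.23e-23). Over the shared regions without chromosome IV, the odds ratio was 0.904, from 9 of 813 arm and 7 of 572 centre summits. The treatment of reads that map to several places is not given in the sources used here, and its part in these shares was not tested. Counted over single-copy sequence alone, which was added after seeing the data, arms held 30.9 and centres 31.1 regions per Mb, a ratio of 0.993 (0.901 to 1.09).

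Of the 17 multi-copy summits, 11 lay in introns and 6 were intergenic, and 8 were on chromosome IV, all 6 intergenic ones included. The usp-39 region was the strongest of them in both replicates. In replicate 1 it was followed by a region in an intron of ssu-2, which had a signal value of 17.1 there and of 7.42 (rank 21321) in replicate 2. In replicate 2 it was followed by a region in an intron of Y49G5B.1, with 12.2 there and 16.5 in replicate 1. A further one lay in an intron of unc-119, the gene mutated in the strain, with signal values of 10.4 and 10.6.

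Introns held more of the arm regions than any other place. Of the 1047 summits, 439 lay in introns (41.9%, 38.9 to 45.0), 317 were intergenic (30.3%, 27.5 to 33.2) and 291 lay in exons (27.8%, 25.1 to 30.6). In the centres 27.1% were intronic, 32.9% intergenic and 40.1% exonic. The odds of an intron were 1.94 times those in the centres (1.57 to 2.40, two-sided Fisher's exact test, adjusted p = 1.87e-09), and the odds of an exon were 0.576 times (0.468 to 0.709, adjusted p = 3.88e-07). The intergenic share did not pass the test (odds ratio 0.887, 0.719 to 1.09, Fisher's exact test, adjusted p = 0.418), but it did over all distal regions of replicate 1 (0.893, adjusted p = 0.0277) or of replicate 2 (0.913, adjusted p = 0.0205).

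The eligible sequence of arms and centres differed in the same way. Introns made up 40.6% of eligible bases on the arms and 29.0% in the centres, and exons 28.1% and 38.4%. Per Mb of intron, arms held 28.1 regions and centres 27.3, a ratio of 1.03 (0.865 to 1.22). Per Mb of exon they held 26.9 and 30.6, a ratio of 0.878 (0.743 to 1.04). Neither ratio passed the test (exact binomial test, adjusted p = 0.848 and 0.386), so the calls on intron and exon shares were lost when the sequence available was the denominator. These denominators were added after seeing the data. Regions of replicate 1 that were not found in replicate 2 had nearly the same places, with 40.8% of the 3948 arm regions in introns.

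**Figure D2:**
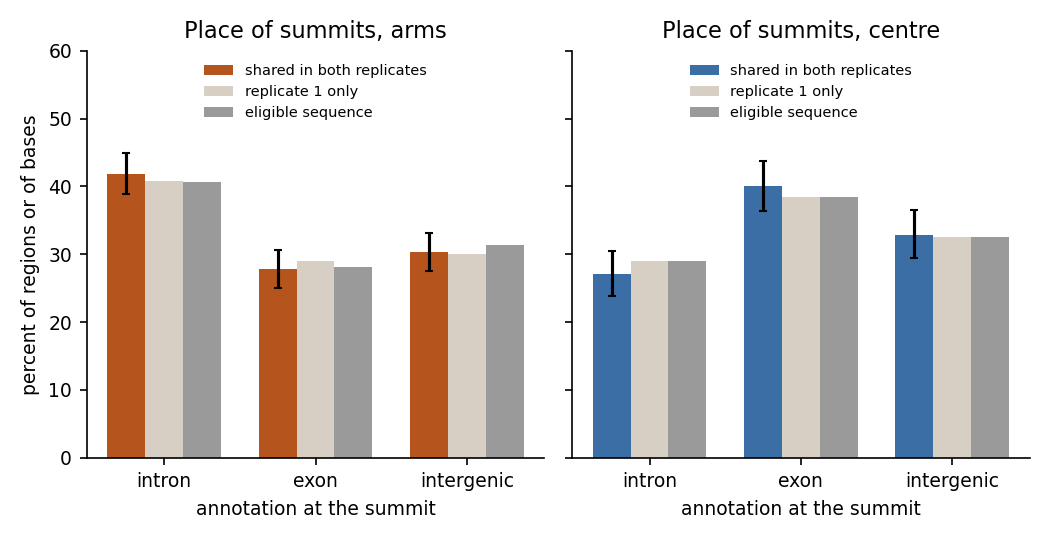
Percent of summits by annotation (horizontal axis) for arms (left) and centres (right). Coloured bars are shared regions with 95% Clopper-Pearson intervals, light bars are distal regions found in replicate 1 only, and grey bars are the percent of eligible bases. On the arms 41.9% of summits and 40.6% of bases were intronic, and in the centres 27.1% and 29.0%.

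Within exons, coding sequence held 208 arm summits (19.9%), close to its 20.3% of eligible bases. Untranslated exon sequence held 49 (4.68%, 3.48 to 6.14) on 3.20% of bases, and 7.76% in the centres on 4.36% of bases. Exons of pseudogenes held 17 (1.62%, 0.949 to 2.59) on 3.27% of bases, and exons of RNA genes also held 17, on 1.32% of bases. Distance to the nearest protein-coding start had a median of 1936 bp, against 1913 bp over eligible arm sequence, and reached 18188 bp. Introns of protein-coding genes, taken with all other annotation left out, held 432 arm summits and had a median length of 962 bp, against 1101 bp over eligible intron bases. In the centres these lengths were 637 bp and 679 bp.

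Repeat-masked sequence, marked in lower case in the RefSeq assembly, held 446 of the arm summits (42.6%, 39.6 to 45.7) and 213 of the 709 centre summits. The odds ratio was 1.73 (1.41 to 2.13, two-sided Fisher's exact test, adjusted p = 3.88e-07). Of eligible positions, 43.8% on the arms and 28.9% in the centres were masked. A repeated 8-base word within 50 bp of the summit, as in the usp-39 sequence above, was present at 39.2% of arm summits (36.2 to 42.2) and in 40.6% of windows along eligible arm sequence. Median GC content was 35.6% both at arm summits and over eligible arm sequence.

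Receptor half-sites were rare at the replicate 1 summits of the arm regions, as they were along eligible arm sequence. AGGTCA, searched on both strands within 50 bp of the summit, was found at 19 of 1047 arm summits (1.81%, 1.10 to 2.82), at 2.54% of centre summits and at 2.33% of eligible arm positions. AAGGTCA, which contains AGGTCA, was found at 5 arm summits (0.478%, 0.155 to 1.11) and at 0.639% of eligible arm positions. The arms and centres did not differ past the test in either (Fisher's exact test, adjusted p = 0.418 and 0.441). The shares were higher with list roles swapped, that is, at replicate 2 summits inside replicate 1 regions. AGGTCA was then found at 2.92% of 1061 arm summits and 3.02% of centre summits, and AAGGTCA at 1.23% and 1.73%. Eligible centre positions had 2.36% and 0.738%. Whether summits of either list differ from eligible positions was not tested. GAGAGA, a GA-rich word, was found at 65 arm summits (6.21%, 4.82 to 7.84), at 5.22% of the arm regions found in replicate 1 only and at 4.50% of eligible arm positions. In the centres it was found at 6.49% of summits and 5.99% of positions. The difference between arms and centres did not pass the test (Fisher's exact test, adjusted p = 0.848), and its direction turned in 7 of 18 alternatives.

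**Figure D3:**
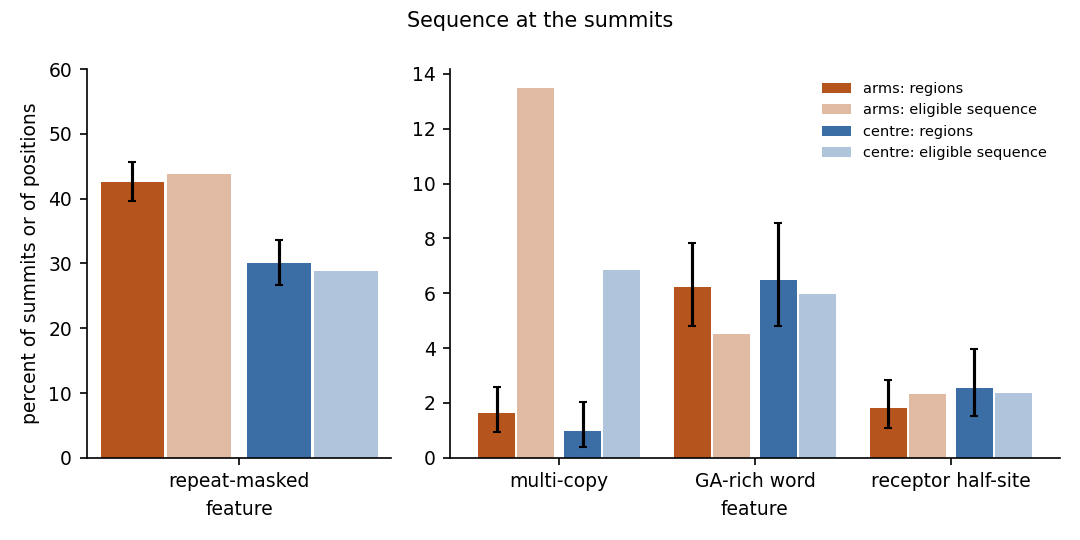
Percent of summits (dark bars, 95% Clopper-Pearson intervals) and of eligible positions (light bars) in repeat-masked sequence (left panel) and in multi-copy sequence or within 50 bp of a GA-rich word or receptor half-site (right panel, another scale). Multi-copy sequence stands apart, at 1.62% of arm summits and 13.5% of eligible arm positions.

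The 5 arm summits with AAGGTCA ranged widely in rank, from 1058 to 13234 in replicate 1 and from 2743 to 14179 in replicate 2. The strongest in replicate 1 was in an intron of ptp-3, which codes for a receptor tyrosine phosphatase of neurons, with 15.7 in replicate 1 (rank 1058) and 9.47 in replicate 2 (rank 10730). The next lay in a coding exon of pmp-4, with 12.7 and 12.9. The third was intergenic on the left arm of V, with 12.7 and 12.4. The other 2, also intergenic, lay on the right arms of V (11.4 and 8.67) and III (9.35 and 8.84). None of the 5 overlapped a pooled or an optimal region.

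The rule required recurrence between the replicates, so the share of regions it kept describes the rule's own condition. Over all distal autosomal regions of replicate 1, 21.0% had their summit in a replicate 2 region. On the arms this was 1047 of 4995 and in the centres 709 of 3353, which is 21.1%. Regions of replicate 2 covered 9.22% of eligible arm bases and 9.35% of eligible centre bases. In single-copy sequence alone they covered 10.3% on the arms, where 21.1% of replicate 1 regions were shared. Near promoters, 365 of 1630 arm regions were shared (22.4%, 20.4 to 24.5).

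Recurrence was also followed over strength in replicate 1, read from the signal value, which is a score deposited with each region and meaningful only inside its own list. From the strongest 25% of the list to the weakest 25%, in 4 equal steps, the shared share on the arms was 24.0%, 21.3%, 18.0% and 20.8%. Among the 500 strongest nuclear regions of replicate 1, 43 of 150 distal arm regions were shared (28.7%, 21.6 to 36.6), and 43 of 138 centre regions (31.2%, 23.6 to 39.6).

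**Figure D4:**
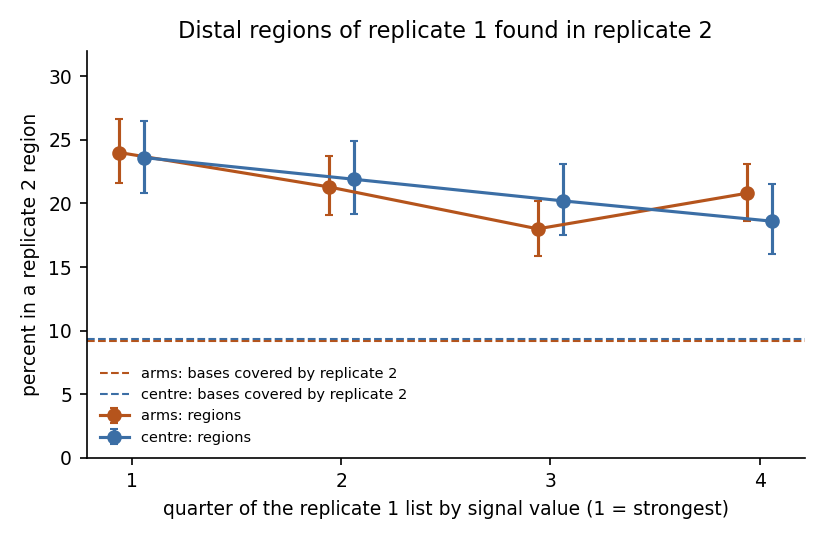
Percent of distal replicate 1 regions whose summit lay in a replicate 2 region (vertical axis) in 4 equal parts of the replicate 1 list (horizontal axis, 1 is the strongest), with 95% Clopper-Pearson intervals. Dashed lines are the percent of eligible bases that replicate 2 regions cover. All 8 points lie between 18.0% and 24.0%, above the dashed lines at 9.22% and 9.35%.

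Arm regions had median ranks near the middle of both lists, and q-values mostly near 1. In replicate 1 their signal values ran from 9.20 to 53.5 with a median of 11.3, and the median rank was 6524 of 13846 nuclear regions. In replicate 2 they ran from 7.07 to 31.4 with a median of 9.60, and the median rank was 10225 of 23768. A q-value under 0.05 was found for 1 arm region and 3 centre regions in replicate 1, beside 0.205% over all shared autosomal regions. In replicate 2 it was found for 0 arm regions, beside 0%. The median q-values were 0.899 and 0.870. Medians of signal value and q over the whole lists were not taken, so whether arm regions differ from them was not tested.

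The strongest 25% of the replicate 1 list held 281 arm regions (26.8%, 24.2 to 29.6) and 29.6% of centre regions, beside 29.5% over all shared autosomal regions. That difference did not pass the test (odds ratio 0.872, 0.702 to 1.08, Fisher's exact test, adjusted p = 0.418). Over all distal regions of replicate 1, shared or not, it did (0.844, adjusted p = 0.00220, Fisher's exact test). In replicate 2 the strongest 25% held 326 arm regions (31.1%, 28.3 to 34.0) and 36.8% of centre regions, beside 33.8% over all shared autosomal regions. There the arms were lower (odds ratio 0.776, 0.632 to 0.954, Fisher's exact test, adjusted p = 0.0461), but the call was lost in 10 of 18 alternatives, among them leaving out chromosome III (odds ratio 0.829), IV (0.764) or V (0.788). Over all distal regions of replicate 2, shared or not, the odds ratio was 0.832 (Fisher's exact test, adjusted p = 6.40e-06).

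Ranks in the replicates were close to unrelated over the arm regions. Spearman's rho between the ranks was 0.03 over the 1047 arm regions, which share their lists, and 0.07 over the centre regions. In all, 92 arm regions (8.79%, 7.14 to 10.7) were in the strongest 25% of both lists, where the product of the 2 separate shares is 8.36%. Of these 92, 40.2% were intergenic (30.1 to 51.0) and 30.4% intronic (21.3 to 40.9).

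**Figure D5:**
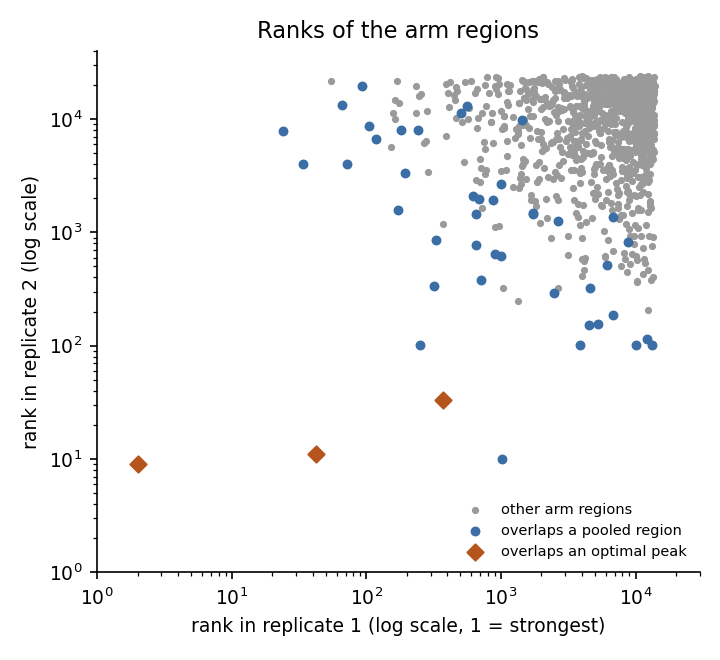
Rank of each arm region in replicate 1 (horizontal) and of the replicate 2 region that holds its summit (vertical), both on log scales with 1 the strongest. Diamonds overlap an optimal peak, blue points a pooled region, grey points neither. The 3 diamonds sit apart at the lower left, while most points crowd at ranks beyond 1000 in both lists.

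The authors' own lists took in few arm regions. An optimal peak was overlapped by 3 of them (0.287%) and by 6 centre regions (0.846%), beside 0.533% over all shared autosomal regions. A pooled region was overlapped by 45 (4.30%, 3.15 to 5.71) and by 44 centre regions (6.21%, 4.55 to 8.24), beside 5.25%. Of the 45, 15 lay in introns, 16 in exons and 14 between genes. The pooled list was made from both replicates, so it is not independent of them.

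Replicate 2 regions that hold arm summits made up 4.34% of its nuclear list. Among its 100 strongest regions there were 4 that hold one, the 3 in optimal peaks and 1 near piRNA genes. The first, at chrI:4172178-4172577, was intergenic and 789 bp upstream of egg-5, which acts at the egg-to-embryo transition. Its signal value was 53.5 in replicate 1 (rank 2, q = 0.0141) and 31.4 in replicate 2 (rank 9, q = 0.158). The usp-39 region at chrII:2570518-2570917, in a 1329 bp intron of a gene named for a ubiquitin-specific protease, had 23.7 (rank 42) and 29.4 (rank 11). The third, at chrI:10565303-10565702 and 847 bp upstream of the proteasome subunit gene pas-5, had 17.9 (rank 372) and 24.2 (rank 33). All 3 were strong in both replicates. Optimal peaks are past the authors' reproducibility filter, so this strength is not independent of how the 3 were picked.

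Most of the other leading regions were strong in only 1 replicate. The C39E9.8 intron region at chrIV:13081607-13082006 had 25.1 in replicate 1 (rank 24) but 10.3 in replicate 2 (rank 7895). The linc-128 region at chrV:1151277-1151676, in an exon of a long non-coding RNA gene, had 24.1 (rank 34) and 12.0 (rank 4025). The region in an intron of arrd-6 at chrII:11149472-11149871 had 22.9 (rank 55) and 7.34 (rank 21796), near the bottom of the second list. Among the 20 strongest arm regions of replicate 1, 12 overlapped a pooled region, 7 were intronic, 7 exonic and 6 intergenic. They included coding exons of hsp-90, a cytosolic chaperone gene (19.7 and 7.36), of alg-2, which codes for an Argonaute protein of the microRNA pathway (19.8 and 8.57), and of dnj-19, a gene of the DnaJ co-chaperone family (19.5 and 10.3).

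In the other direction, the intergenic region at chrIV:14033957-14034356, 9623 bp from the start of Y37A1B.7, had 30.7 in replicate 2 (rank 10) and 15.8 in replicate 1 (rank 1013). A single replicate 2 region (signal value 20.4) held the summits of 2 arm regions in dhc-4, a dynein heavy chain gene. One lay on an snRNA gene inside an intron and had 18.8 in replicate 1 (rank 250), and the other lay in a coding exon and had 9.35 (rank 13230). A region in a coding exon of unc-52, which codes for the basement membrane protein perlecan, had 19.5 in replicate 2 (rank 153) and 12.3 in replicate 1 (rank 4536). An intron of daf-16, the FOXO factor of insulin signalling, held one with 16.7 (rank 519) and 11.5 (rank 6119).

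Among the 1000 strongest of both lists there were 9 arm regions and 12 centre regions. Besides the 3 in optimal peaks and the snRNA region, they were a region where ncx-1, a sodium-calcium exchanger gene, overlaps sec-23, a vesicle coat gene (18.3 and 17.6), a region in an untranslated exon of W06H8.6 (18.2 and 15.5), and 3 intergenic ones. The intergenic region at chrV:15873806-15874205 lay 87 bp outside nhr-102 and had 16.0 and 16.2. Those at chrIII:12135632-12136031 and chrIII:502694-503093 lay 5489 bp and 9323 bp from the nearest protein-coding start.

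Arm regions were spread thinly over genes. Of 9423 protein-coding genes on the arms, 616 (6.54%) held at least 1 summit, and 539 of these held 1, 68 held 2 and 9 held 3 or more. The most were 5 in cdh-10, a 26.9 kb cadherin gene on the left arm of IV, of which 3 also lay in the overlapping gene C45G7.13. Their signal values ran from 10.4 to 14.3 in replicate 1 and from 7.15 to 12.4 in replicate 2, and the best rank among them was 1972 in replicate 1 and 3367 in replicate 2. Long genes made up most of the rest, with 3 summits each in unc-89 (55.2 kb, a giant muscle protein), ptp-3 (36.7 kb), pqn-41 (33.6 kb), tir-1 (32.1 kb, the worm SARM1) and snt-3 (12.8 kb, a synaptotagmin). W06H8.6 and nhr-86 held 3 each in 5.76 kb and 5.75 kb. Median distance to the nearest other arm region was 13723 bp, and 50 regions (4.78%) had a neighbour within 1000 bp.

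Of the 174 nuclear hormone receptor genes on the arms, 9 (5.17%) held an arm region, beside 6.54% of all protein-coding genes there, and 24 (13.8%) had one inside or within 2 kb, beside 12.6%. Some regions were counted for more than 1 of these genes, such as 1 region for both nhr-55 and nhr-130. In the centres, 3 of 72 such genes (4.17%) held a centre region, and the count inside or within 2 kb was also 3, beside 12.1% of all protein-coding genes. In nhr-86 the 3 regions had 12.6, 9.26 and 11.1 in replicate 1 and 8.30, 9.85 and 7.44 in replicate 2, and the first held AGGTCA. The coding exon of nhr-166 held a region with 16.0 (rank 908) and 15.0 (rank 1111). Regions inside nhr-59 (16.3 and 12.3) and nhr-95 (17.8 and 7.43) were weaker in replicate 2 by rank. Genes nhr-85, nhr-50, nhr-106, nhr-130 and nhr-179 held 1 each, with signal values between 9.42 and 13.1 in replicate 1.

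Other families, some of them expanded on the arms, were counted in the same way. F-box genes, whose products select proteins for degradation, had 3 of 293 with a region inside (1.02%) and 7 with one inside or within 2 kb (2.39%). Chemoreceptor genes had 19 of 918 (2.07%) and 68 (7.41%), and C-type lectin genes 3 of 182 (1.65%) and 17 (9.34%). Their genes were shorter, with median lengths of 1.52, 1.67 and 1.79 kb against 2.01 kb for all arm genes. Any part of gene length in these shares was not tested. Collagen genes, shorter still at a median of 1.30 kb, had 3 of 55 with a region inside (5.45%) and 9 with one inside or within 2 kb (16.4%). Within 2 kb, snoRNA genes had 24 of 153 (15.7%) and piRNA genes 1429 of 12460 (11.5%), where 1 region can serve several neighbouring genes. Pseudogenes had 106 of 1480 (7.16%). In the centres the shares inside or within 2 kb were 8.33% for F-box genes (1 of 12), 7.31% for chemoreceptors and 7.27% for C-type lectins. They were 10.8% for collagens, 15.0% for snoRNA genes, 11.3% for piRNA genes and 7.87% for pseudogenes. Over all protein-coding genes the share was 12.6% on the arms and 12.1% in the centres. These shares are counts without a test.

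At the limits of the rule, values inside and outside overlapped at 500 bp. The regions just inside the 500 bp limit, at 503 and 509 bp, had 9.40 and 16.5 in replicate 1, and those just outside, at 498 and 497 bp, had 11.7 and 14.8. Just inside the arm limit on V, at 70.02% and 70.04% of the chromosome, they had 11.8 and 12.9, and just outside, at 69.99% of V and 69.89% of II, 9.49 and 10.3.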

How the data were processed

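ChIP-seq peak lists of 2 biological replicates of 1 group were used as deposited on ce11 (WBcel235), together with the optimal and pooled lists. Per the labels, the lists were made on ce10 and ce11, and only ce11 was used, without converting coordinates. The signal value is a score that the authors deposited with each region. It was used only within its list, for ranks over nuclear regions. The authors deposited q-values as −log10 of q, which were converted back. Which aligner and caller were run, and at which IDR threshold, is not given in the sources used here. No list holds counts, so read depth is unknown and intervals cover counting error over regions only.

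Members and gene lists were chosen with earlier results of these data known. Named regions were the 20 strongest of replicate 1, the 10 strongest of replicate 2, all overlapping a pooled or optimal region by 1 bp, genes with at least 3 members, nhr genes with a member inside or within 2 kb, and the regions nearest each limit. Not all of those overlapping a pooled region are spelled out in the text. Places came from the Ensembl 115 annotation, exons before introns. Background positions were taken every 100 bp. Arms and centres were compared by exact binomial or Fisher's exact tests (two-sided), adjusted by Benjamini-Hochberg over 12 comparisons at 0.05, with 95% intervals. Each alternative was adjusted over its own comparisons, of which there were 10 where one list was used alone. The code, in Python 3.11.15, numpy 2.4.6, scipy 1.17.1 and matplotlib 3.10.9, was first tested on simulated data. Alternatives changed the promoter distance, arm limit, overlap rule, strength, lists and autosomes.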

Additional observations from a re-analysis of the deposited data

How the results depend on the processing

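Of 134 alternative values for density, place, strength and recurrence, 109 kept their direction and side of the threshold, 14 lost and 4 gained a call, and 7 turned direction. Per Mb of its own class, the intron ratio was 1.03 and the exon ratio 0.878, and over single-copy sequence 1.10 and 0.924, so both calls were lost; the denominator itself changed there. The share in the strongest 25% of replicate 2 lost its call beyond 1000 bp from starts (odds ratio 0.764), with the outer 20% as arms (0.845), with summits within 100 bp (0.772), in the stronger part of replicate 1 (0.724), with neighbours merged (0.797), without optimal peaks (0.782), with list roles swapped (0.792), and without chromosome III (0.829), IV (0.764) or V (0.788); the cause was not tested. The recurrence odds ratio, never past the threshold, turned above or to 1 beyond 1000 bp (1.00), with starts of every biotype (1.02), with the outer 25% or 20% as arms (1.03 and 1.03), with neighbours merged (1.02) and without chromosome V (1.01).

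With one replicate list alone, the density ratio was 0.936 to 0.990, the intergenic odds ratio 0.893 to 0.913, passing in both, the intron odds ratio 1.56 to 1.74, the exon odds ratio 0.637 to 0.683, and the odds ratios for the strongest 25% 0.844 in replicate 1 and 0.832 in replicate 2, both passing. In the stronger part of replicate 1 the intergenic odds ratio was 1.04. The multi-copy odds ratio was 2.62 to 3.74 with one list alone, passing in both. Over the shared regions it was 0.904 without chromosome IV. The AGGTCA odds ratio was 0.928 to 1.04 with one list alone. The GAGAGA odds ratio turned to 1.01 beyond 1000 bp, 1.05 with starts of every biotype, 1.13 with summits within 100 bp, 1.05 in the stronger part, 1.04 with neighbours merged, 1.84 with list roles swapped (Fisher's exact test, adjusted p = 0.0355) and 1.28 without chromosome III, but was 0.802 in replicate 2 alone (Fisher's exact test, adjusted p = 0.00482). No paired analysis was possible because the replicates form 1 group. Unknown depth, q-values mostly near 1 and the absence of a control list in this work limit every value above.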
